A study of Mus musculus with 4 samples.

Results

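The proteasome is the protease that degrades ubiquitin-tagged proteins, and its genes were described here across 4 sorted populations of mouse intestinal tumour cells. Genes were taken by name: a symbol beginning Psma, Psmb, Psmc, Psmd, Psme, Psmf or Psmg plus a digit, without the interferon-inducible Psmb8, Psmb9 and Psmb10. This gave 47 of the 22911 named genes on the array. Of these, 44 are subunits, assembly chaperones, activators or the inhibitor of the proteasome. The other 3 were taken by their name alone, namely Psmc3ip, a partner of meiotic recombination enzymes, Psme3ip1, a protein that binds the activator Psme3, and Psme2b, a near-copy of the activator gene Psme2, which had no probe of its own name.

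The study compared tumour epithelial cells sorted for EpCAM, an epithelial surface protein, and then for the stem cell receptor Lgr5 and the receptor IL17RB, which the study used as its tuft marker. A tuft cell is a scarce epithelial cell type that senses luminal chemicals. The 4 groups, with 1 array each, were cells positive for both (Lgr5+ tuft marker+), cells with Lgr5 alone (Lgr5+ tuft marker-), cells with the tuft marker alone (Lgr5- tuft marker+) and cells with neither (Lgr5- tuft marker-). All came from mice given as Lgr5CreERT2/+; Ctnnb1lox(ex3)/ox(ex3), with cells collected 14 days after tamoxifen. Tamoxifen activates the Cre recombinase made in Lgr5-expressing cells, and loss of the floxed exon of Ctnnb1 leaves a stabilised beta-catenin. All groups share these alleles and the tamoxifen, no group with unaltered Ctnnb1 was analysed here, and Lgr5 marks both the driver of Cre and a sorted class. The age of the mice and how many gave cells to each group are not given in the sources used here.

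The proteasome is built from a 20S core, a barrel of alpha and beta rings whose beta subunits cut peptide bonds, and a 19S cap, whose ATPases unfold substrates and whose lid removes ubiquitin. Dedicated chaperones assemble both parts, and other activators can replace the cap. In mammals the transcription factor Nfe2l1 raises the genes together when proteolysis falls short, and in dividing gut epithelium the proteasome clears cyclins and other short-lived regulators, beta-catenin among them when it is not stabilised.

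A level below is the log2 signal of a gene's brightest probe minus the 75th percentile of that array, so that 0 is this percentile. Probes bind with different strength, so levels were compared between arrays for 1 gene and not between genes. A difference is 1 level minus another, with the error that the scanner software gave for both spots. That error had a median of 0.20 on the log2 scale in every pair of arrays and covers the reading of the spots, not animals, sorts or labelling. With 1 array per group there was no replicate, nothing was tested, and all statements describe these 4 arrays, whose number limits the precision.

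Of the spots, between 60.2% and 69.0% were well above background, which gave 15327 to 17157 genes per array. All 13 epithelial markers were above background on every array. Il17rb itself had levels of -0.38 and 0.12 on the Lgr5+ and Lgr5- arrays of tuft marker+ cells and of -3.13 on Lgr5+ tuft marker-, and was not above background where both markers were absent. The Lgr5 gene stood at -0.78 with and -0.80 without the tuft marker in Lgr5+ cells, at -3.19 on Lgr5- tuft marker-, and was not above background on the remaining array. Myeloid markers differed along with the tuft marker: all 16 were above background on both tuft marker+ arrays, against 11 on Lgr5+ tuft marker- and 13 on Lgr5- tuft marker-. Of 12 stromal and endothelial markers, 11 were above background on Lgr5- tuft marker+ and 6 to 7 on the others, and of 14 lymphoid markers 12 and 7 to 10.

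The 45 proteasome genes above background on at least 1 array are the ones described below, and 44 were above background on all 4. Psma8, a testis form of an alpha subunit, and Psmb11, the thymus form of a beta subunit, were not above background on any array. Psmf1, the inhibitor, was not above background on Lgr5- tuft marker+, and its differences against that array are lower limits. The median level of the measured genes was 2.53 on Lgr5+ tuft marker+, 2.53 on Lgr5+ tuft marker-, 2.30 on Lgr5- tuft marker+ and 3.02 on Lgr5- tuft marker-. In bulk RNA, fewer cells with a gene and less of its RNA per cell cannot be told apart.

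Within Lgr5- cells, proteasome genes were nearly all lower in the cells that carried the tuft marker: 44 of 45 were below 0, with a median difference of -0.69, which is 1.61-fold. The exception was Psme3. Relative to the median of all genes, the proteasome median was lower by 0.39 to 0.79 under 9 other processing choices, and between 40 and 45 measured genes were below 0 under them. Over all 17911 genes measured in this pair, 46.8% were below 0 and the median was 0.08. Among the 6590 genes with a mean level of 0 or more, to which most proteasome genes belong, the median was -0.17. At a threshold of 2-fold, 8 of 45 were lower (17.8%) against a background of 12.3% of all genes, and 0 were higher against a background of 16.6%. At 1.5-fold, 29 were lower against a background of 25.1% and 1 was higher against a background of 29.3%. The background over bright genes, with a mean level of 0 or more, was 13.9% at 2-fold lower, so the 2-fold count stood little above it.

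Scaling to each array's median turned the background into 11.5% higher and 19.2% lower, with 18 proteasome genes lower, and the authors' scaled values turned it into 25.0% and 6.52%, with 1, Psmb1.

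Within Lgr5+ cells the median of the same comparison lay near 0. It was 0.12 against 0.00 for all 17501 genes, and 30 of 45 genes were above 0. None passed 2-fold, against a background of 10.5% higher and 8.23% lower, which normexp background correction turned into 3.59% and 1.07%. At 1.5-fold 6 were higher against a background of 20.5% and 3 were lower against a background of 20.4%. The highest was Psmd13 at 0.92 and the lowest Psmd8 at -0.85.

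Comparing Lgr5+ with Lgr5- cells within tuft marker+ cells, 38 of 45 genes were higher in Lgr5+, with a median of 0.45 against -0.04 for all 17625 genes. The genes Psmd5 and Psmg1 were at least 2-fold higher (4.44% of the members, background 8.96%) and 0 lower (background 11.5%). Neither reached 2-fold with the authors' values, normexp or the 75th percentile over probes detected everywhere, which gave 0 genes higher. Scaling to each array's median gave a background of 14.8% higher and 7.39% lower, and the authors' values 6.08% and 15.6%. At 1.5-fold 14 were higher against a background of 21.8%, and 1 lower against a background of 23.9%. Within tuft marker- cells the direction was the other way: 42 of 45 were lower in Lgr5+, with a median of -0.43 against 0.01 for all 17527 genes. None passed 2-fold in either direction (background 6.62% higher and 5.31% lower, or 5.09% and 7.17% when scaled to each array's median), and at 1.5-fold 16 were lower against a background of 15.7% and 0 higher against a background of 18.2%. Each tuft marker pair shares 1 array with each Lgr5 pair.

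**Figure D1:**
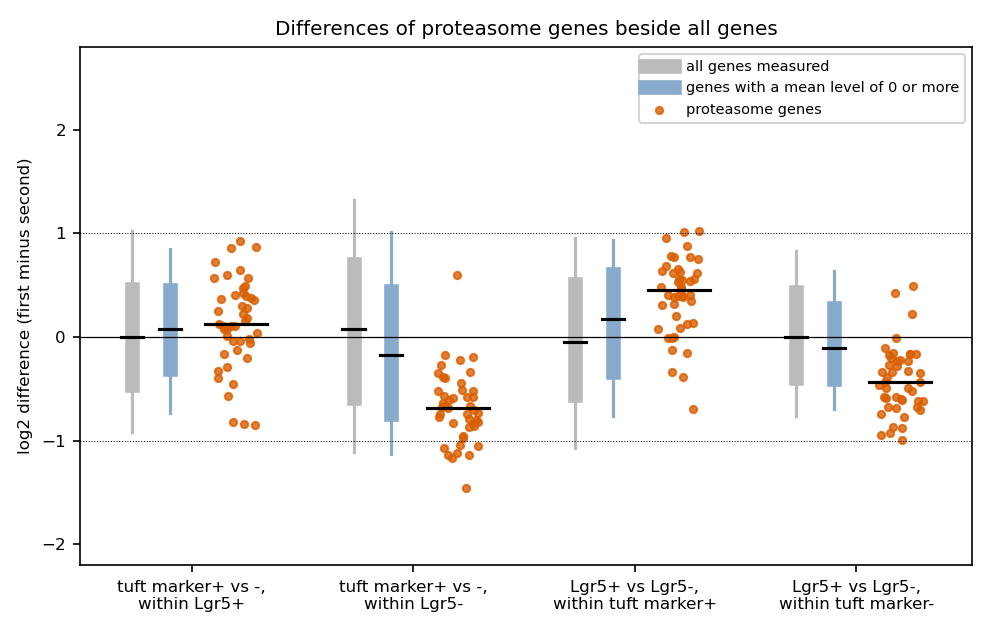
Log2 differences in the 4 pairs of arrays, with 1 orange point per measured proteasome gene (45), beside all genes measured (grey) and genes with a mean level of 0 or more (blue), drawn as the middle 50% (thick) and middle 80% (thin). Black bars are medians and dotted lines mark 2-fold: the proteasome median is 0.12, -0.69, 0.45 and -0.43 from left to right.

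The order of the arrays shows the same values from the other side. The Lgr5- tuft marker- array held the highest level of 35 of the 45 genes, against 25.0% of all genes. Of these 35, 22 lay beyond the error of the difference from the next array. The same array held the lowest level of none, against 24.6%. The Lgr5- tuft marker+ array held the lowest level of 32, against 29.3% of all genes, and the highest of only Psme3, against 33.5%. Of these 32, 19 lay beyond that error. The shares of all genes were taken without regard to the error. Lgr5+ tuft marker+ was highest for 7 (Psma4, Psmd2, Psmd3, Psmd4, Psme1, Psmf1, Psmg1; 21.4% of all genes) and lowest for 5 (25.2%). Lgr5+ tuft marker- was highest for 2 (Psmg2, Psmg4; 20.1%) and lowest for 8 (20.9%).

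**Figure D2:**
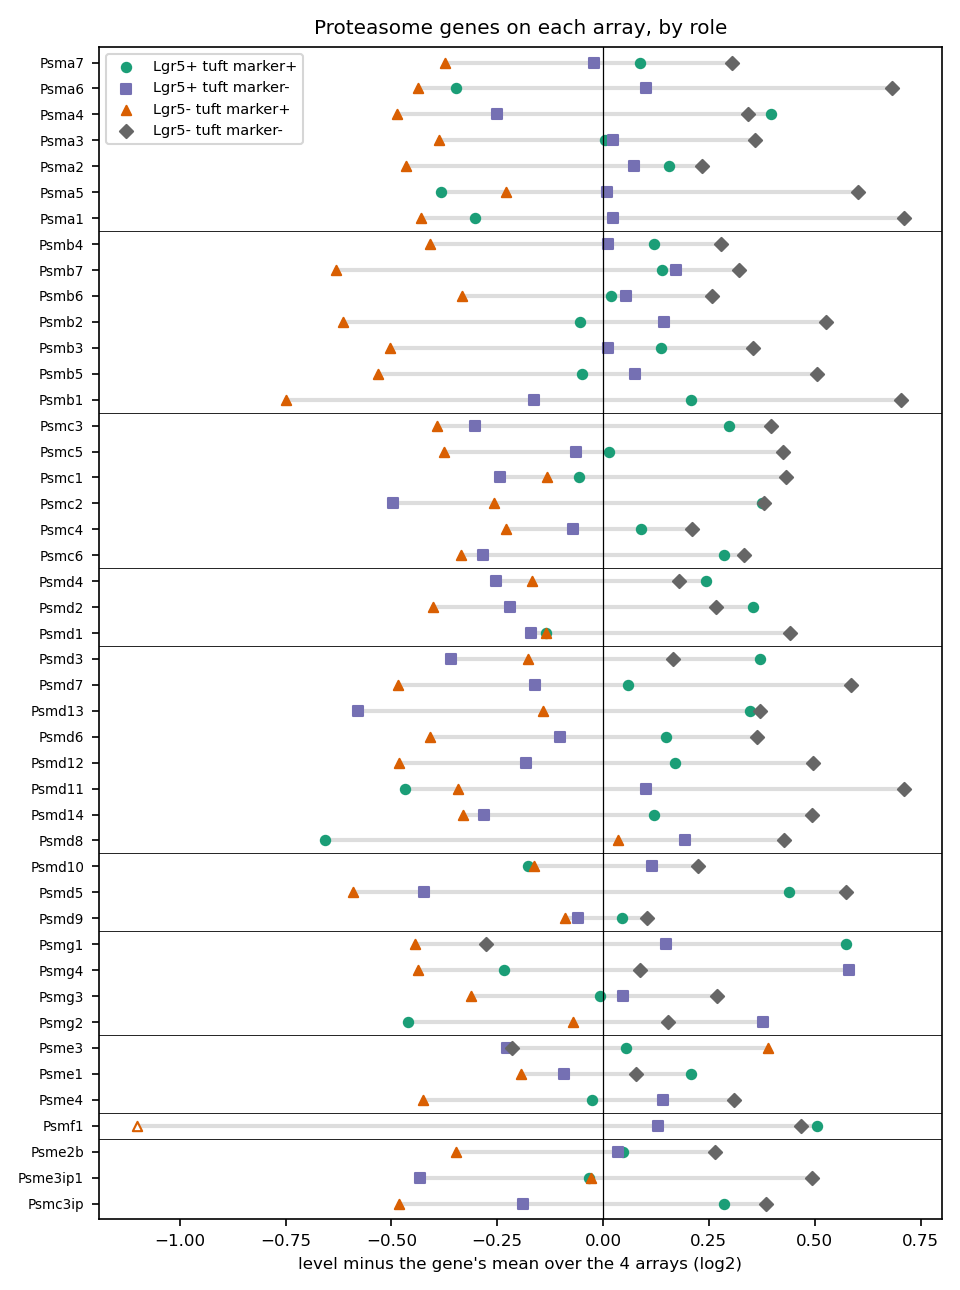
Level of each measured proteasome gene on the 4 arrays minus its own mean (log2), by role from alpha ring (top) to genes taken by name only (bottom). Grey diamonds (Lgr5- tuft marker-) lie at the right for 35 of 45 genes and orange triangles (Lgr5- tuft marker+) at the left for 32; the open triangle of Psmf1 was not above background.

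The alpha ring forms the outer gates of the core, and its 7 measured subunits were all lower in tuft marker+ cells within Lgr5- (median -0.83, range -1.14 to -0.68). Psma1 had levels of 2.49, 2.81, 2.36 and 3.50 in this order: both markers, Lgr5 alone, tuft marker alone, neither. That order is kept below. Psma1 was 2.20-fold lower in tuft marker+ cells within Lgr5- (difference -1.14 ± 0.20, scanner error), and 1.25-fold lower within Lgr5+ (-0.33 ± 0.20). Psma6 gave 3.16, 3.61, 3.07 and 4.19 in the same order and was 2.17-fold lower in tuft marker+ cells within Lgr5- (-1.12 ± 0.20). For both genes 1 array, Lgr5- tuft marker-, stood above the other 3 on the probe used. The second probe of Psma6 had 2.65, 2.15, 2.11 and 2.92, with Lgr5+ tuft marker+ high as well. Psma7 was flatter at 4.30, 4.19, 3.84 and 4.52. The remaining alpha genes, Psma2, Psma3, Psma4 and Psma5, were 0.70 to 0.83 lower in that pair. Within Lgr5+ cells the 7 differences ran from -0.45 to 0.65, Psma4 being the highest, and their median of -0.02 changed sign under 6 of 9 other processing choices.

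The beta ring holds the 3 catalytic subunits. Psmb5, which cuts after hydrophobic residues, had levels of 1.08, 1.21, 0.60 and 1.64, and was 2.05-fold lower in tuft marker+ cells within Lgr5- (-1.04 ± 0.21). Psmb6, which cuts after acidic residues, had 2.99, 3.02, 2.63 and 3.23, with a difference of -0.59 ± 0.20 there. Psmb7, which cuts after basic residues, had 3.35, 3.39, 2.58 and 3.54, with -0.95 ± 0.20. All 3 were lowest on Lgr5- tuft marker+ and highest on Lgr5- tuft marker-, and on the Lgr5+ arrays the tuft marker+ and tuft marker- levels lay within the scanner error of each other (-0.13, -0.03 and -0.03).

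The structural beta subunit Psmb1 had the widest range of the genes above background on every array, with levels of -0.03, -0.40, -0.98 and 0.47. It was 2.74-fold lower in tuft marker+ cells within Lgr5- (-1.45 ± 0.21) and stood at 0.37 ± 0.21 within Lgr5+. Between both tuft marker+ arrays it was 1.94-fold higher in Lgr5+, just short of the 2-fold threshold. Psmb2 had 2.86, 3.06, 2.30 and 3.44 and was 2.21-fold lower in that first pair (-1.14 ± 0.20). Psmb4 had 4.42, 4.31, 3.89 and 4.58. It and Psmb3 differed there by -0.69 and -0.86. On the probes used, all 7 measured beta genes were lower in tuft marker+ cells within Lgr5- (median -0.95) and all 7 were higher in Lgr5+ cells within tuft marker+ (median 0.56, range 0.35 to 0.96). The second probe of Psmb4 gave -0.14 in the latter pair.

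The 6 ATPases of the 19S base, Psmc1 to Psmc6, thread substrates into the core. They were lower as a set in tuft marker+ cells within Lgr5- (6 of 6, median -0.65, range -0.80 to -0.44) and above 0 in the same comparison within Lgr5+ (6 of 6, median 0.38, range 0.08 to 0.87). Within Lgr5+ the differences of Psmc1, Psmc4 and Psmc5 lay within the scanner error, and further probes of Psmc3 gave 0.04 and -0.40. Psmc3 had levels of 4.896, 4.296, 4.207 and 4.996, and Psmc6 1.13, 0.56, 0.51 and 1.17: in both, Lgr5+ tuft marker+ and Lgr5- tuft marker- were high and the other arrays low. Psmc2 had the same high arrays but was lowest on Lgr5+ tuft marker-, at 2.92, 2.05, 2.29 and 2.92, with differences of 0.87 ± 0.20 within Lgr5+ and -0.64 ± 0.20 within Lgr5-. Psmc4 varied little, at 1.66, 1.497, 1.34 and 1.78. Psmc1 and Psmc5 were 0.19 and 0.08 higher in tuft marker+ cells within Lgr5+ and 0.56 and 0.80 lower within Lgr5-.

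The other base subunits Psmd1, Psmd2 and Psmd4, which hold the cap together or bind ubiquitin chains, were 3 of 3 above 0 for the tuft marker within Lgr5+ (median 0.50) and 3 of 3 below 0 within Lgr5- (median -0.58), although Psmd4 turned positive there with normexp and quantile normalization. Psmd4, a ubiquitin receptor, had 5.45, 4.96, 5.04 and 5.39, and Psmd1, a scaffold, had 2.50, 2.46, 2.50 and 3.07. On this probe of Psmd1 only the Lgr5- tuft marker- level stood apart. Its further probes had 1.06, 0.65, 0.62 and 1.38, and 1.28, 0.61, 0.76 and 1.21. On both of these Lgr5+ tuft marker+ was high as well. Psmd2, the other scaffold, differed by 0.57 ± 0.20 within Lgr5+ and -0.67 ± 0.20 within Lgr5-, and its second probe gave the opposite sign within Lgr5+.

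Among the 8 lid subunits, all were lower in tuft marker+ cells within Lgr5- (median -0.80), Psmd3 alone turning positive with normexp and quantile normalization, and all were lower in Lgr5+ cells within tuft marker- (median -0.64). Psmd7, the partner of the lid deubiquitinase, had 3.89, 3.67, 3.35 and 4.42 and was 2.10-fold lower in the first of these pairs (-1.07 ± 0.20). Psmd11, a lid scaffold, had -0.15, 0.42, -0.03 and 1.03 and was 2.07-fold lower (-1.05 ± 0.21). Both were highest on Lgr5- tuft marker-, but the lowest array was Lgr5- tuft marker+ for Psmd7 and Lgr5+ tuft marker+ for Psmd11. Psmd12, at -0.98, lay just short of the 2-fold threshold. Psmd14, the lid deubiquitinase itself, had 0.02, -0.39, -0.43 and 0.39, with a difference of -0.82 ± 0.21.

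Like Psmd11, the genes Psmd8, Psmd13 and Psmd3 departed on the probe used from the order of the other lid genes. Psmd8 had -1.58, -0.73, -0.89 and -0.50, lowest on Lgr5+ tuft marker+, with -0.85 ± 0.23 for the tuft marker within Lgr5+. Psmd13 had 3.62, 2.70, 3.14 and 3.65, lowest on Lgr5+ tuft marker-, with 0.92 ± 0.20 in that pair. Psmd3 had 4.33, 3.61, 3.79 and 4.13, with 0.73 ± 0.20. The second probes of Psmd13 and Psmd3 were instead lowest on Lgr5- tuft marker+. That of Psmd13 had -1.02, -1.67, -2.82 and -1.11, and that of Psmd3 had -0.18, 0.43, -0.28 and 0.43. Psmd6, the eighth, followed the common order at 1.73, 1.48, 1.17 and 1.94.

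Set side by side, the 14 measured core subunits and the 17 base and lid subunits had medians of -0.84 and -0.67 for the tuft marker within Lgr5-. Within Lgr5+ the core median was -0.03, with 8 of 14 below 0, and the base and lid median was 0.35, with 2 of 17 below 0. The core median there changed sign under 5 of 9 other processing choices and the base and lid median under none, but the latter fell to 0.17 at its lowest, the ATPases from 0.38 to 0.18 and the other base subunits from 0.50 to 0.14. The further probes of Psmd2, Psmd3 and Psmd4 were at -0.76, -0.61 and -0.21 there. The difference between core and cap was not tested.

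Of the chaperones that assemble the 19S base, Psmd5 varied most: its levels were -0.01, -0.87, -1.04 and 0.12. Both low arrays were separated from both high arrays by 0.86 or more. It was 2.24-fold lower in tuft marker+ cells within Lgr5- (-1.16 ± 0.21), 1.82-fold higher within Lgr5+ (0.86 ± 0.21), 2.04-fold higher in Lgr5+ within tuft marker+ (1.03 ± 0.21), and 1.99-fold lower in Lgr5+ within tuft marker- (-0.996 ± 0.21), where it missed the threshold. Psmd9 and Psmd10, the other chaperones of this kind, were among the flattest genes. Psmd9 had -2.02, -2.12, -2.16 and -1.96, within the scanner error in all 4 pairs, and Psmd10 had -0.34, -0.05, -0.33 and 0.06.

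Psmg1 to Psmg4 assemble the alpha ring of the core, and Psmg3 alone among them was highest on Lgr5- tuft marker- as most core genes were. Psmg1 had 0.53, 0.11, -0.49 and -0.32. Both Lgr5+ arrays were above both Lgr5- arrays, and within tuft marker+ cells Psmg1 was 2.03-fold higher in Lgr5+ (1.02 ± 0.21). Its partner Psmg2 had -3.03, -2.19, -2.64 and -2.42, lowest on Lgr5+ tuft marker+ (-0.84 ± 0.32 for the tuft marker within Lgr5+). Psmg4 had -1.04, -0.23, -1.25 and -0.72, higher on the tuft marker- array in both Lgr5 classes (-0.82 ± 0.22 and -0.52 ± 0.22), and Psmg3 had -1.30, -1.25, -1.61 and -1.03. The median of the 4 in Lgr5+ against Lgr5- within tuft marker- cells was 0.32, whereas every other role group lay below 0 in that pair.

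Activators open the core in place of the 19S cap. Psme3, the nuclear activator, was the 1 gene higher in tuft marker+ cells within Lgr5-: its levels were 8.75, 8.47, 9.08 and 8.48, and it differed by 0.60 ± 0.20 (1.52-fold) there and by 0.28 ± 0.20 within Lgr5+. It had 1 probe, so no second reading exists on these arrays. Psme1, a subunit of the interferon-inducible activator, had 6.11, 5.81, 5.70 and 5.98, a range of 0.40. Psme4, an activator linked to histone degradation, had 2.22, 2.39, 1.82 and 2.56 and followed the core, with -0.73 ± 0.20 in tuft marker+ cells within Lgr5-. The inhibitor Psmf1 had -2.87, -3.24 and -2.91 on the other arrays, in the order above, and was at least 1.67-fold lower on Lgr5- tuft marker+ than on Lgr5- tuft marker-. Its difference within Lgr5+ (0.38 ± 0.38) was of the opposite sign when the other probe entered.

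Of the genes taken by name only, Psme2b had 3.73, 3.72, 3.34 and 3.95; its probes may also bind RNA of Psme2, so the reading is uncertain between both. Psme3ip1 had 0.76, 0.36, 0.77 and 1.29, and Psmc3ip had -2.25, -2.73, -3.02 and -2.16. All 3 were lower in tuft marker+ cells within Lgr5- (-0.61, -0.52 and -0.87).

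The tuft marker difference of a gene within Lgr5+ and within Lgr5- comes from separate arrays, so both can be set side by side. It was larger within Lgr5+ for 41 of 45 genes, with a median gap of 0.81 (range -0.61 to 2.02), against 50.8% of all genes and a median gap of 0.02. The signs were opposite for 29 of the 45 genes, against 52.7% of all genes. For 17 of the 29, both differences lay beyond the scanner error, which the shares of all genes leave aside. For Lgr5 within each tuft marker class the signs were opposite for 37 genes, against 65.8% of all genes. Of these 37, 26 had both differences beyond the error. The gap is by arithmetic the same for both axes, so these are 1 pattern of the 4 arrays and not separate ones.

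**Figure D3:**
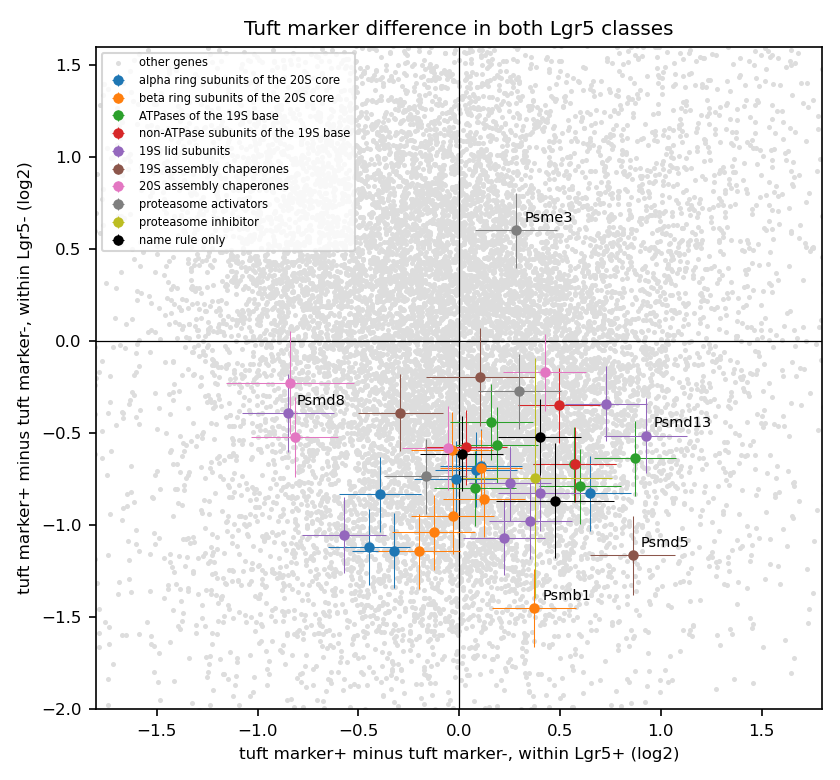
Tuft marker difference (log2) of each gene within Lgr5+ (horizontal) and within Lgr5- (vertical), with scanner errors as bars. Proteasome genes, coloured by role, lie below the horizontal zero line except Psme3 (0.60), and on both sides of the vertical one; grey points are other genes inside the axes.

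For 19 of the genes, 2 or more probes were above background on every array. Within Lgr5- all 24 further probes of these genes were lower in tuft marker+ cells (median -0.80, range -1.71 to -0.07), as were the 19 probes used (median -0.69). Within Lgr5+ the further probes had a median of 0.07, with 9 of 24 below 0, and probes of 8 of 19 genes disagreed in sign, namely Psma6, Psmb4, Psmb6, Psmc3, Psmd2, Psmd3, Psmd4 and Psme2b. Probes of Psmb4, Psmd2, Psmd3 and Psme2b there lay at least 2-fold apart. Within Lgr5- those of Psmd2 and Psmd13 did, and for Lgr5 within tuft marker+ those of Psmd13. Sign disagreement was found for 3 of 19 genes in each of the Lgr5 pairs. These were Psmb4, Psmd4 and Psme2b within tuft marker+, and Psmc3, Psmc4 and Psmd2 within tuft marker-.

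**Figure D4:**
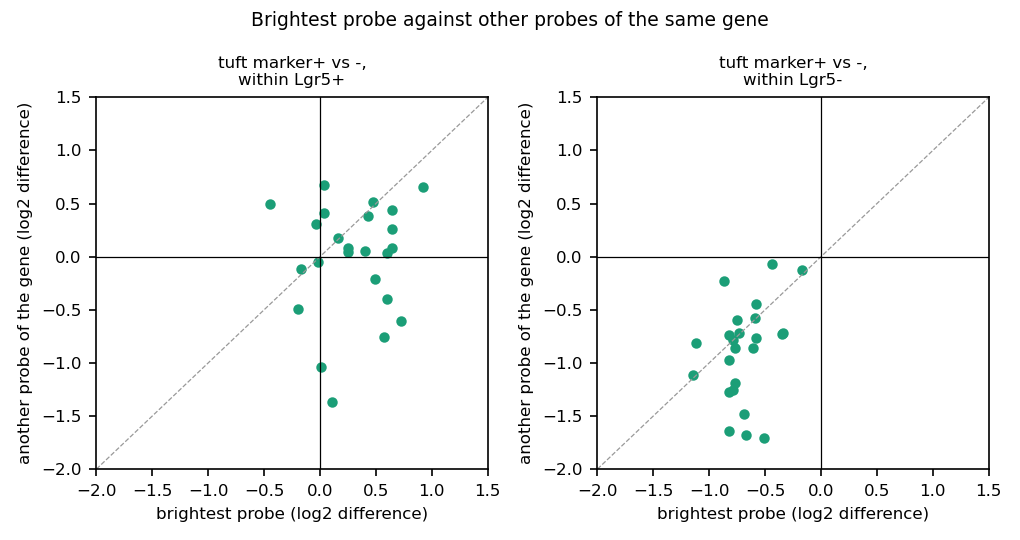
Log2 difference of further probes (vertical) against the brightest probe (horizontal) of the same gene, for 24 further probes of 19 genes. In the right panel, within Lgr5-, all points lie below 0 on both axes; in the left panel, within Lgr5+, they lie on both sides of 0.

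Genes that work with the proteasome are given next, by lists chosen for function. Adrm1, Sem1, Pomp, Akirin2 and Ecpas, subunits and chaperones with other names, were all below 0 for the tuft marker within Lgr5- (median -0.43) and 4 of 5 were above 0 within Lgr5+ (median 0.43). Sem1, a small lid subunit, had 2.86, 2.21, 1.74 and 2.43, and was 2-fold or more higher in Lgr5+ within tuft marker+ (1.12). The proteasome-bound deubiquitinases Usp14 and Uchl5 differed by -0.32 and -0.71 within Lgr5-.

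Ubqln4, of the ubiquilin family of shuttle proteins that deliver ubiquitinated proteins, had 1.05, 0.48, -0.06 and 1.03, with a difference of -1.10 for the tuft marker within Lgr5-. It was also 1.12 higher in Lgr5+ within tuft marker+. Of 5 genes that regulate proteasome genes or activity, 4 were above 0 for the tuft marker within Lgr5+ (median 0.49), and 3 below and 2 above 0 within Lgr5- (median -0.19, or 0.11 with the authors' values). Nfe2l1 had 0.83, 0.34, 0.17 and 0.48. Ngly1, the glycanase that frees Nfe2l1 for its maturation, had -0.77, -1.87, -2.40 and -1.24. It was 1.11 higher in tuft marker+ cells within Lgr5+, 1.17 lower within Lgr5-, and 1.64 higher in Lgr5+ within tuft marker+. Nfe2l2, its relative in the response to oxidative stress, had 1.57, 0.72, 1.65 and 1.37, and was above 0 for the tuft marker within Lgr5- (0.28), as was Zfand5 (0.10). Ddi2, the protease that cleaves Nfe2l1, had -1.07, -0.77, -0.35 and -0.17. Ubiquitin activating enzyme Uba1 differed by 0.42 and -0.24 within Lgr5+ and Lgr5-. The former turned negative with the mean of all probes, and the latter became 0.06 with the authors' values. Uba6 was not above background.

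The immunoproteasome subunits, which replace the catalytic ones, did not pass 2-fold in any pair. Psmb8 had 2.43, 2.43, 2.51 and 2.79, Psmb9 2.89, 3.82, 3.57 and 4.13, and Psmb10 2.86, 2.73, 2.69 and 3.25, and all 3 were below 0 for the tuft marker within Lgr5-.

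Other large complexes are given for comparison. The eIF3 complex, which starts translation, had medians of 0.01, -0.94, 0.55 and -0.38 for the tuft marker in Lgr5+ cells, for the tuft marker in Lgr5- cells, and for Lgr5 in cells with and without the tuft marker, an order of pairs kept in this paragraph. All 13 of its genes were lower in the second pair, Eif3d, Eif3f and Eif3i by at least 2-fold (-1.11, -1.30 and -1.36). The CCT chaperonin, which folds actin and tubulin, had -0.07, -0.95, 0.58 and -0.47, with 8 of 8 lower in the second pair and Tcp1, Cct3 and Cct6a at -1.39, -1.97 and -1.43; Cct3 was also 1.15 higher in Lgr5+ within tuft marker+. Beside them, the beta ring had -0.03, -0.95, 0.56 and -0.34 and the lid 0.30, -0.80, 0.52 and -0.64. The COP9 signalosome, a relative of the lid, had -0.39, -0.61, 0.07 and -0.25. In the second pair 8 of its 10 genes were lower, while Cops8 (0.97) and Cops5 (0.30) were above 0. It had Cops3, Cops4 and Cops7a at least 2-fold lower in the second pair (-1.24, -1.84 and -1.47), Cops4 also in Lgr5+ within tuft marker- (-1.04) and Cops8 in Lgr5+ within tuft marker+ (-1.36).

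**Figure D5:**
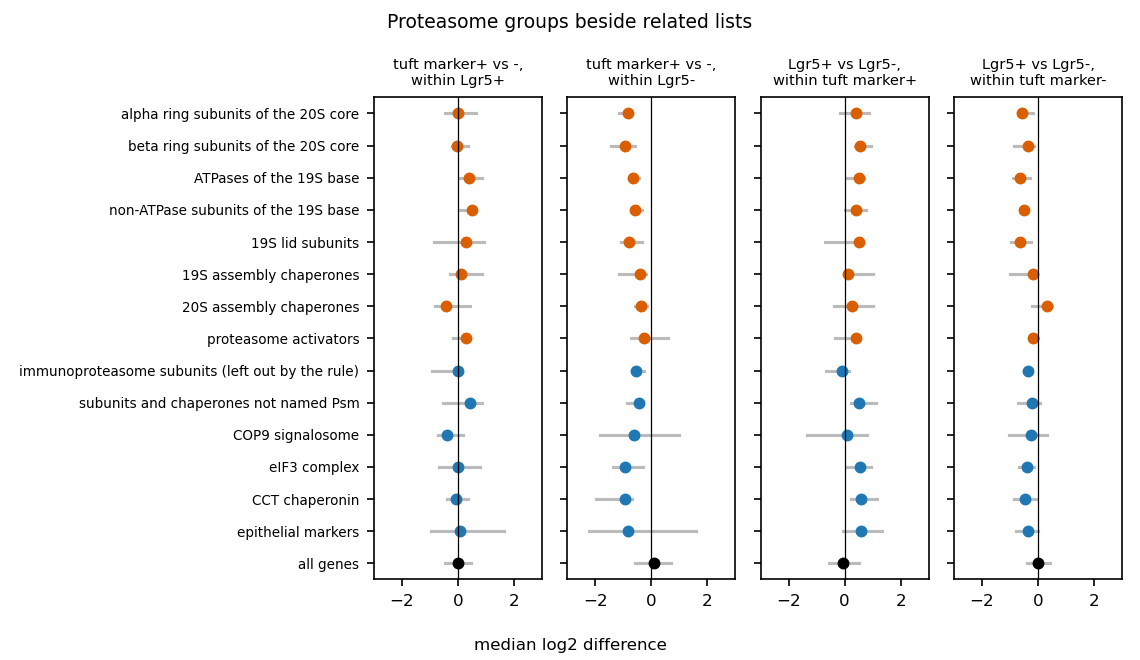
Median log2 difference (points) of proteasome role groups (orange), related lists (blue) and all genes (black) in the 4 pairs; grey lines run from the lowest to the highest gene, or over the middle 50% for all genes. In the second panel the eIF3 (-0.94), CCT (-0.95) and epithelial marker (-0.85) medians lie beside those of the alpha (-0.83) and beta (-0.95) rings.

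Values of other lists moved with the tuft marker within Lgr5- as well. The 13 epithelial markers were lower in tuft marker+ cells in 11 of 13 cases (median -0.85), and the S and G2/M phase genes in 16 of 21 (median -0.87). All 9 goblet cell markers were lower there (median -1.53), Retnlb most (-2.15), and 8 of 9 within Lgr5+ (median -0.76). Of the 11 enterocyte markers above background, 10 were higher in tuft marker+ cells within Lgr5+ (median 1.79, Apoc3 at 4.01 and Apoa4 at 3.12), 6 were above and 5 below 0 within Lgr5- (a median of 0.02 that turned negative with scaling to each array's median and with normexp), and 11 of 11 were lower in Lgr5+ within tuft marker- (median -1.14). Of 16 myeloid markers, 14 were above 0 for the tuft marker within Lgr5+ and 16 within Lgr5-. The myeloid gene Tyrobp stood at 3.56, -2.06, 4.91 and 0.63, and the stromal gene Col3a1 at 0.57, -2.62, 3.33 and -1.61. The stromal and endothelial list was not uniform for the tuft marker. Acta2 was below 0 within Lgr5+ (-0.07, within the scanner error) and within Lgr5- (-0.80), and Pecam1 within Lgr5+ (-0.40). The other markers of this list that were measured in these pairs were above 0. Lum, Pdgfra, Pdgfrb and Cdh5, stromal and endothelial markers, were above background on Lgr5- tuft marker+ alone. On the scale of log2 summed signal, the myeloid list stood at 9.52, 9.09, 9.64 and 9.28 on the 4 arrays, the stromal list at 5.34, 4.998, 5.91 and 5.37, the lymphoid list at 3.95, 4.41, 5.35 and 4.01, and the epithelial list at 8.08, 7.35, 7.76 and 7.72. A single gene, Itgam, at 9.33, 8.98, 9.34 and 9.19, made up most of the myeloid sum. Cd4, at 3.41, 3.94, 4.67 and 3.29, made up most of the lymphoid sum. Acta2, at 4.86, 4.94, 4.52 and 5.32, made up most of the stromal sum on every array but Lgr5- tuft marker+. The epithelial sum includes Krt18, which was 1.58 higher in tuft marker+ cells within Lgr5-, where the list median was -0.85. The sums thus follow few bright genes. The defining markers Kdr of endothelium, Cd3d of T cells and Ms4a1 of B cells were not above background on any array. The part of these cells in the proteasome values was not tested.

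Promoters were read because most members shared a direction within Lgr5-. RefSeq promoter windows, from 250 bases before to 50 bases after the start (GRCm38.p6), were matched by symbol for 39 of the 47 genes. They were searched on both strands for TGACNNNGC, a pattern of the antioxidant response element that Nfe2l1 and Nfe2l2 bind. It was found in 6, namely Psmb5, Psmb6, Psmc6, Psmd9, Psmd12 and Psme4, which is 15.4% of them, against 14.0% of 27025 genes with a window. The median difference for the tuft marker within Lgr5- was -0.70 for these 6 and -0.67 for the 32 measured genes without the pattern. The stretches before the start that hold it are given below for the catalytic subunit Psmb5, at least 2-fold lower in that pair, and for Psmc6, Psmd12 and Psmd9, the ATPase, lid and chaperone genes, with the pattern in capitals, in the direction of the gene. In Psmc6 and Psmd12 the pattern reads on the opposite strand.
Psmb5: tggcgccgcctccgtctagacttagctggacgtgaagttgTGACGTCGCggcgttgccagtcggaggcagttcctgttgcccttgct
Psmc6: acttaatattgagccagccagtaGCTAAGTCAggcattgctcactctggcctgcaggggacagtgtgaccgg
Psmd12: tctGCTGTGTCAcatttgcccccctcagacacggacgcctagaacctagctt
Psmd9: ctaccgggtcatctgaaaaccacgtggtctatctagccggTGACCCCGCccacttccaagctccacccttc
They lie at chr14:54617996-54618082 on the minus strand (Psmb5, the pattern starting 47 bases before the start), chr14:45329574-45329645 on the plus strand (Psmc6, the pattern starting 227 bases before the start), chr11:107479278-107479329 on the plus strand (Psmd12, the pattern starting 247 bases before the start) and chr5:123228119-123228189 on the plus strand (Psmd9, the pattern starting 31 bases before the start). A match is a description of the letters and says nothing of binding.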

How the data were processed

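RNA of 4 sorted populations was measured on 4 one-colour Agilent arrays, 1 per population, on 1 slide read in 1 scan. Per the labels' protocols, 13 ng of total RNA was labelled with Cy3. Spot intensity was corrected for background and for spatial trends by Feature Extraction 12.0.3.1, per the file headers, without scaling arrays to each other, while the submitters' processing notes name 11.5.1.1. The same deposited files carry flags for spots above background, saturated spots (0) and outliers. The authors also deposited a table of intensity values, which was used as an alternative; its values are linear and equal the scanner values times 1 constant per array.

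From these, log2 intensity minus the 75th percentile of the array was taken, with control spots and 91 to 122 outlier spots per array left out and copies of a probe averaged. Of 56605 probes, 32994 were named through their accession and the RefSeq gene table of GRCm38.p6. A gene was read from its probe with the highest mean signal. A pair took in the genes above background on 1 or both of its arrays, after values were raised to the lowest level above background (-3.41 to -3.86). Differences of at least 2-fold were counted, with 1.5-fold as an alternative, and no test was made. Values on all 4 arrays are given for proteasome genes at least 2-fold apart in any pair and for the catalytic subunits. They are also given for the highest and lowest gene of each role group, and the 4 genes with the widest and the narrowest range. Others were named after their values were seen. Some genes of other lists that were at least 2-fold apart are given by their differences alone. Some genes of related lists, and the summaries that rest on them, are not reported here. The members, lists and rules were chosen with earlier results of these data known. Software was Python 3.11.15, numpy 2.4.6, pandas 2.3.3, R 4.3.3 and limma 3.58.1, and the counting was tested on simulated data.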

Additional observations from a re-analysis of the deposited data

Results flagged for a closer look

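Some genes differed by at least 1.5-fold in opposite directions in the 2 classes of an axis. These gaps were not tested, since each class had 1 array per group. For the tuft marker, the difference within Lgr5+ exceeded that within Lgr5- by 2.02 for Psmd5 (0.86 against -1.16), 1.51 for Psmc2 (0.87 against -0.64), 1.48 for Psma4 (0.65 against -0.83) and 1.39 for Psmc3 (0.60 against -0.79), on the log2 scale. These are 4 of 45 proteasome genes, where 11.3% of all genes met the same description. For Lgr5, the difference within tuft marker+ exceeded that within tuft marker- by 2.02 for Psmd5 (1.03 against -0.996), 1.82 for Psmb1 (0.96 against -0.87), 1.51 for Psmc2 (0.63 against -0.88), 1.48 for Psma4 (0.88 against -0.59), 1.39 for Psmc3 (0.69 against -0.70), 1.33 for Psmd12 (0.65 against -0.68) and 1.24 for Psmc6 (0.62 against -0.62). These are 7 of 45, where 13.3% of all genes did. The gap of a gene is the same number on both axes, and Psmc3 had a second probe that disagreed in sign within Lgr5+. Further probes of Psma4 gave 0.26, 0.44 and 0.09 for the tuft marker within Lgr5+, short of 1.5-fold.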

How the results depend on the processing

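The sign of the proteasome median kept in all 4 pairs under 9 other choices, where it ran from 0.10 to 0.22 (tuft marker within Lgr5+), -0.92 to -0.39 (within Lgr5-), 0.27 to 0.67 (Lgr5 within tuft marker+) and -0.55 to -0.32 (within tuft marker-). The counts past 2-fold depended on the scaling, which shifts all genes of a pair by up to 0.29; the share of all genes past 2-fold under the same choice stands in parentheses. Scaling to each array's median gave 1 gene higher in the first pair (Psmd13; 12.4%), 18 lower (19.2%) and a median of -0.92 in the second, 5 higher (14.8%) and a median of 0.67 in the third, and 3 lower (7.17%) in the fourth. The authors' scaled values gave 1 lower (6.52%) and a median of -0.39 in the second pair and 0 higher (6.08%) in the third. Normexp on the median signal, added after seeing the data because the files hold no mean signal, gave 1 higher (3.59%) in the first pair, 0 lower (3.31%) and a median of -0.39 in the second, and 0 higher (2.24%) in the third. Quantile normalization gave 5 lower (13.5%) and a median of -0.46 in the second pair, 5 higher (11.2%) in the third and 1 lower (5.98%) in the fourth. The 75th percentile over probes detected everywhere gave 0 higher (8.32%) in the third pair, and the mean of all probes gave 1 lower (4.51%) in the fourth. At 1.5-fold the higher and lower counts were 6 and 3, 1 and 29, 14 and 1, and 0 and 16. Apart from the scalings, whose construction shifts every gene alike, the causes were not tested. Single genes kept their sign under every choice for 36, 39, 35 and 42 of 45 in the 4 pairs. Normexp on the mean signal and protein sequence identity were not run. No paired analysis was possible because each population had 1 array. Genes not above background have only a bound.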
